A study of Mus musculus with 6 samples.

Results

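The SMAD transcription factors of transforming growth factor beta (TGF-beta) signalling and the proteins that restrain them were examined through the open chromatin at their genes in mouse lung fibroblasts. The 10 genes were Smad2, Smad3, Smad4, Smad6, Smad7, Ski, Skil, Tgif1, Smurf1 and Smurf2. Every region that the authors' tables named for one of these genes, and placed within 100 kb of its start site, was taken. This gave 66 of the 64217 regions in the table of plastic against 32 kPa, 2 of the 2121 regions listed for 32 kPa against 0.2 kPa, and 1 of the 2114 listed for plastic against 0.2 kPa. The assay, Omni-ATAC-seq, reads open chromatin from where a transposase can insert sequencing adapters. The cells were GFP-positive lung fibroblasts sorted from Col1a1-GFP transgenic mice, so that expression of the reporter chose them. They were grown for 8 days on a collagen I coating (0.1 mg/mL) on 1 of 3 surfaces, 0.2 kPa PDMS (a soft silicone), 32 kPa PDMS (a stiff one) or tissue-culture plastic, in medium with 10% serum. Each surface had 2 libraries of 50000 cells. All 3 groups carried the transgene and the same coating, and the labels give no treatment with TGF-beta or any other agent. The regions nearest to the 100 kb limit were those of Tgif1 at 99.8 kb (3.41 on plastic and 3.91 on 32 kPa, in the unit explained next) and Smad6 at 94.2 kb (5.38 and 5.25) inside it, and Tgif1 at 101 kb (4.41 and 4.91) and Smad6 at 104 kb (3.32 and 3.87) outside it. By the authors' annotation 10 of the 66 were promoters (15.2%, against 19.6% of all regions), 40 were intronic (60.6%, against 37.2%), 15 intergenic (22.7%, against 38.3%) and 1 lay at a transcription end.

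The deposited tables hold 1 mean per surface, written as log2 normalised reads per region, and this value is called the level here. A difference of 1 in level is a doubling of reads. The level grows with the length of a region, so genes are ranked only per kb of region. The strongest region of a gene is the one with the most reads, whatever its length, and its value per kb is given where that changes the order. Values per library were not analysed here, and the precision of a difference rests on the false discovery rate (FDR) in the authors' tables. Nothing in the labels says whether the libraries of a surface came from separate animals, so p-values may measure technical spread only. Of 11 fibroblast markers, 10 had a promoter region in the table of plastic against 32 kPa, with Lum as the exception, against 1 of 8 epithelial, 2 of 5 endothelial and 0 of 6 leukocyte markers and 1 of 6 mesothelial and mural markers. A fold is the log2 difference of 2 levels, of a stiffer surface over 0.2 kPa or of plastic over 32 kPa, and is positive where the surface named before the other is higher.

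TGF-beta receptors phosphorylate SMAD2 and SMAD3, which join SMAD4, enter the nucleus and bind DNA at short sequences, often beside other factors. SMAD6 and SMAD7 block this at the receptor, SMURF1 and SMURF2 are ubiquitin ligases that mark SMADs and receptors for destruction, and SKI, SnoN (the product of Skil) and TGIF1 recruit corepressors to SMADs on DNA. In fibroblasts the pathway is known for driving collagen synthesis and the contractile myofibroblast state, and Skil and Smad7 are themselves known targets that feed back on it.

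The Smad3 promoter sequence is shown because it was the member promoter listed as more accessible on plastic than on 0.2 kPa, and 3 others are shown beside it to compare an unlisted SMAD, ligase and corepressor. RefSeq promoter windows (GRCm38.p6, the same assembly as mm10) were used for 6 of the 10 genes, and the 250 bases before each start were read, from 5′ to 3′ on the strand of the gene. Capitals mark the SMAD words CAGAC and GGCGC on either strand, and a sequence without capitals holds neither.
Smad3 (chr9:63757995-63758244, minus strand): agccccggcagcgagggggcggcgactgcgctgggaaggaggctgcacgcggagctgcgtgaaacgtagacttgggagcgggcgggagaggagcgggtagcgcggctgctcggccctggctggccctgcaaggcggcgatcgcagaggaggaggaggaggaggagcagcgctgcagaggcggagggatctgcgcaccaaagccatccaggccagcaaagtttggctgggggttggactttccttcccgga
Smad6 (chr9:64022060-64022309, minus strand): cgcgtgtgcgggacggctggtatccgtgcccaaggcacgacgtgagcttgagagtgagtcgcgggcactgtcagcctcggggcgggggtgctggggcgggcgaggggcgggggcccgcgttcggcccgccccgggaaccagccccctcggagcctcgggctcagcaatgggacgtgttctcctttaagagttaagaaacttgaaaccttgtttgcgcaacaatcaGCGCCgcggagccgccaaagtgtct
Smurf2 (chr11:106920716-106920965, minus strand): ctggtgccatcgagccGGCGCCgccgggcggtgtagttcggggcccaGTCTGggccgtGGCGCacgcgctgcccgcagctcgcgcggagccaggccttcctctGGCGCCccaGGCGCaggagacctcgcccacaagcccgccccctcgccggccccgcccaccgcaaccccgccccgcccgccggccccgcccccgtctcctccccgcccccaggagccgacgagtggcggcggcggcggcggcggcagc
Tgif1 (chr17:70851735-70851984, minus strand): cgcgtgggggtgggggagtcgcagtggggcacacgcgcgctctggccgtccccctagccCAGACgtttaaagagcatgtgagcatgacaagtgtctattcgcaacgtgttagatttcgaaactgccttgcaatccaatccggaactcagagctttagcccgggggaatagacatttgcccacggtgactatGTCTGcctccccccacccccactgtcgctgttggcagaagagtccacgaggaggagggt
The Smad3 window lay wholly inside the accessible region at its start, as did that of Smurf2, while 186 of 250 bases of the Smad6 window and 192 of 250 of the Tgif1 window did. The Smad3 window held none of the 6 motifs searched on both strands, which were CAGAC, the palindrome GTCTAGAC and the GC-rich GGCGC for SMADs, TGANTCA for AP-1, GGAATG for TEAD and TGACAG for TGIF. With positions counted back from the start, Smad6 had GGCGC at -25 and TGACAG at -183, Smurf2 had CAGAC at -203 and 6 matches to GGCGC, and Tgif1 had CAGAC at -59 and -191. Tgif1 has 5 start windows in RefSeq, and the printed one belongs to its promoter region with the most reads. The other 4 held 0 or 1 match to CAGAC each. Windows of Ski and Smurf1 were read but are not printed. That of Ski held 7 matches to GGCGC and 0 to CAGAC, was 87.6% G and C, and had 0 bases inside an accessible region. That of Smurf1 held CAGAC at -145 and -192 and 4 matches to GGCGC. Matches to GGCGC on opposite strands can overlap and were counted separately. These words are common. CAGAC occurred in 42.2% of 32851 promoter windows of the same length, GGCGC in 32.0%, TGACAG in 15.9%, GGAATG in 12.6%, TGANTCA in 6.75% and GTCTAGAC in 0.167%. The Smad3 window was 69.2% G and C, that of Smad6 66.8%, that of Smurf2 82.0% and that of Tgif1 58.8%, against a mean of 53.2% over all windows.

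Fibroblasts on 32 kPa had a more accessible Skil promoter and a more accessible region in the first intron of Ski than fibroblasts on 0.2 kPa. Both genes encode corepressors of SMADs. No region of a member SMAD gene, of Tgif1 or of a SMURF gene was listed for 32 kPa. Smad1, a SMAD gene outside the members, did have a listed region, 99.3 kb from its start (fold 1.05 in the authors' deposited table). The list holds regions with a fold of at least 1 and an FDR of at most 0.05, all of them higher on the stiff surface, so smaller or opposite changes at the other members could not be seen. The members' count was near the background. Of the 66 regions, 2 (3.03%) overlapped a listed region, against 3.31% of all regions of the table of plastic against 32 kPa. Of those reaching the list's lowest level on 32 kPa, 4.97, it was 2 of 25 member regions (8.0%), against 12.5% of all such regions, and among promoters at that level 1 of 9 (11.1%), against 13.0%.

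The Skil promoter region (mm10, chr3:31094451-31095114, 275 bases upstream of the start) had a level of 7.84 on 32 kPa, against 6.66 on 0.2 kPa, a fold of 1.18 (2.27-fold) at an FDR of 0.000751 in the authors' deposited table. It stood at rank 19 of the 2121 listed regions by p-value, and the list's median fold was 1.12 in the authors' deposited table. On plastic the matching region had a level of 7.45, which was 0.79 above the level on 0.2 kPa, and it was not listed for plastic. ATAC-seq of a culture cannot tell a region opened further in each cell from a region open in more of the cells. The Ski region (chr4:155173508-155173752) lay 48.9 kb inside the gene, in intron 1 of 6. Its level was 5.98 on 32 kPa, against 4.98 on 0.2 kPa, a fold of 1 (2.0-fold) at an FDR of 0.0318 in the authors' deposited table, so that it stood at the lower limit of the list in size. Its level on plastic was 5.97, which was 0.99 above that on 0.2 kPa, and the plastic list did not hold it. This difference is taken across tables whose plastic levels differ by 0.01 to 0.02, so its side of the list's limit cannot be told, and the FDR against 0.2 kPa at this region is not known here. The comparison of plastic with 32 kPa gave a fold of -0.01 at this region in the authors' deposited table (p = 0.938, FDR = 1).

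Fibroblasts on plastic had a more accessible Smad3 promoter than fibroblasts on 0.2 kPa. No region of the other 9 genes was listed within 100 kb of a start site. This was 1 of 66 member regions (1.52%), against 3.3% of all regions, 1 of 25 member regions reaching the lowest level of the list, 4.94 (4.0%), against 11.7% of all such regions, and 1 of 8 member promoters at that level (12.5%), against 10.8%. The Smad3 promoter region (chr9:63757953-63758373, 169 bases upstream of the start, around the window printed above) had a level of 6.55 on plastic, against 5.54 on 0.2 kPa, a fold of 1.01 (2.01-fold) at an FDR of 0.00509 in the authors' deposited table. The matching region of the table of plastic against 32 kPa was longer, 478 against 421 bases, and its level on 32 kPa was 6.56, which was 1.02 above the level on 0.2 kPa over the shorter region. The Smad3 promoter stood within 0.01 of the same level on plastic and 32 kPa, although it was in the plastic list and not in the other. Both comparisons share the 0.2 kPa libraries, and a level on the remaining surface is read beside the same 0.2 kPa value on which the region was listed.

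A pair of further listed regions fell outside the choice of members, and both belong to plastic. The deposited annotation placed a region in intron 5 of 8 of Smad3 (chr9:63657206-63657432), 100.7 kb from the Smad3 start, but its nearest start site was that of Aagab. Its level was 5.48 on plastic, against 4.26 on 0.2 kPa, a fold of 1.22 at an FDR of 0.0223 in the authors' deposited table. On 32 kPa the level was 4.65, 0.39 above 0.2 kPa, against 1.02 at the Smad3 promoter. The second, named for Tgif1 at a distance of 126 kb (chr17:70720858-70721170), lay in an intron of Dlgap1 and had a level of 5.57 on plastic, against 4.28 on 0.2 kPa, a fold of 1.28 at an FDR of 0.0174 in the authors' deposited table. Its level on 32 kPa was 5.20, 0.92 above 0.2 kPa. Within 100 kb of the start sites of the 10 genes, whatever name a region carried, the only other listed region was one named for Prkci, 95.1 kb from the Skil start, with levels of 6.80 on 32 kPa and 5.74 on 0.2 kPa.

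**Figure D1:**
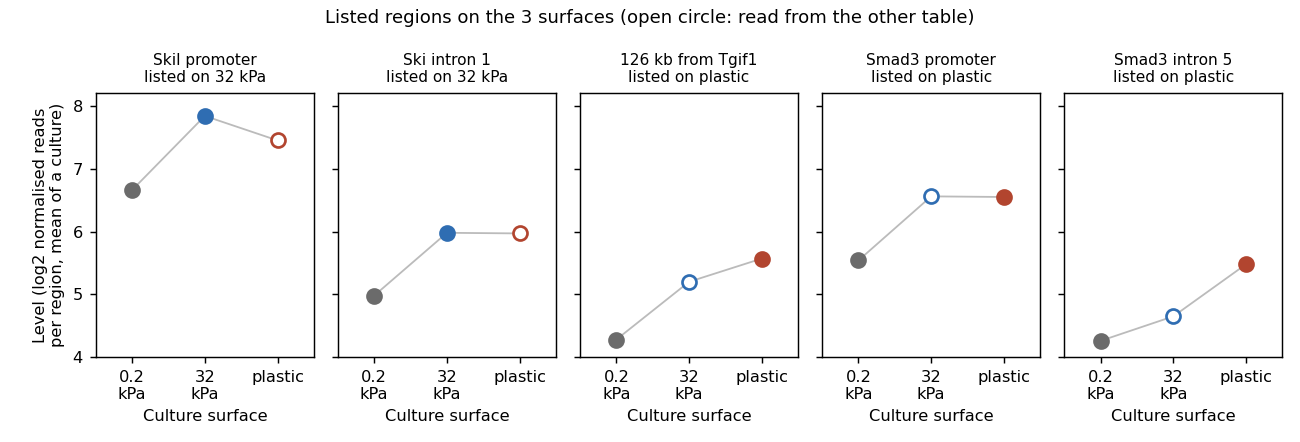
Levels (log2 normalised reads per region, mean of a surface) of the listed regions at the member genes on 0.2 kPa, 32 kPa and plastic. Filled circles come from the list named above each panel and open circles from the matching region of the table of plastic against 32 kPa. The Smad3 promoter and Ski intron stand at nearly the same level on both stiffer surfaces, while the Smad3 intron 5 region stands at 4.65 on 32 kPa and 5.48 on plastic.

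Among listed promoters, those nearest to Skil in their levels on all 3 surfaces were 2700012I20Rik, Atp2b1 and Bhlhe40, at Euclidean distances of 0.035, 0.095 and 0.108 log2 units among 959 promoters of the 32 kPa list. Nearest to Smad3 were Fbxw7, Vipas39 and Rnf11, at 0.022, 0.058 and 0.062 among 817 promoters of the plastic list. These distances use levels per region, not corrected for length, and rest on 3 surface means each, so they describe read levels alone.

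Plastic and 32 kPa were not told apart at any member region. The FDR was 1 at all 66 regions in the authors' deposited table, for which the submitters' notes name DiffBind, as at all 64217 (0.0% called), and 0 member regions had an unadjusted p under 0.05, against 0.576% of all regions. The lowest member p was 0.0728, at the Skil promoter. The median fold of plastic over 32 kPa was -0.04 over the member regions (interquartile range -0.31 to 0.16), against 0.05 over all regions (-0.19 to 0.33). Of the 66 regions, 28 were higher on plastic, 36 were higher on 32 kPa and 2 were equal, so that 54.5% were higher on 32 kPa, against 43.9% of all regions. Most of the large folds were at weak regions. Of 23 member regions with a mean level under 4, 10 had a fold beyond 0.5 in either direction, against 2 of 43 at higher levels, and the shares over all regions were 40.3% and 10.6%.

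**Figure D2:**
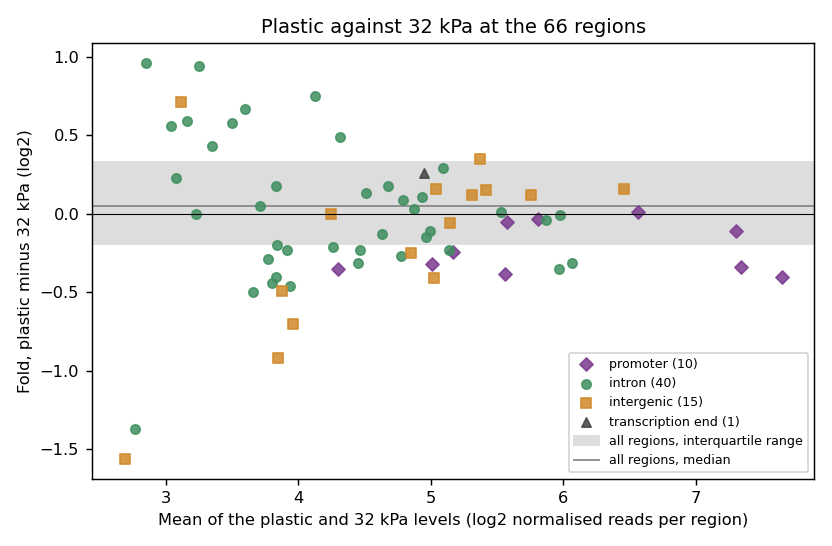
Fold of plastic over 32 kPa (log2, vertical axis) against the mean of both levels (log2 normalised reads per region) for the 66 member regions, marked by location. The grey band is the interquartile range of the fold over all regions, -0.19 to 0.33. Folds spread widely below a level of 4 and the promoters lie at or below a fold of 0.01.

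The strongest promoter region of a gene was lower on plastic than on 32 kPa at 8 of the 9 genes that had one, with Smad3 as the exception, and none of these differences passed the FDR. Their median fold was -0.24 and their range -0.40 to 0.01. Promoters at the same levels over the whole table had a median of -0.03, and 55.5% of them were lower on plastic. A fold of -0.3 or lower was seen at 4 of the 9, Skil, Ski, Smurf2 and Tgif1, against 8.16% of promoters at those levels. The limit of -0.3 was not planned beforehand, so this contrast cannot show an excess among the members. These 9 promoters share libraries and scaling, so they are not independent observations, and the count is a description.

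Per kb of region, the promoters of the corepressor genes Ski and Skil were the most accessible of the member promoters. The Ski promoter had 8.15 on plastic and 8.48 on 32 kPa in log2 reads per kb, and the Skil promoter had 7.99 and 8.39 in the same order. These were higher than 90.8% and 95.8% of all promoter regions for Ski, and 86.4% and 94.6% for Skil, on plastic and on 32 kPa. The promoter regions named for Smad3, Smad7, Smad2 and Smad6 lay lower, within 7.45 to 7.63 on plastic and 7.49 to 7.62 on 32 kPa. Smurf1 had 7.25 on plastic and 7.49 on 32 kPa. Tgif1 had a pair of promoter regions, one of 94 bases with 7.54 on plastic and 7.88 on 32 kPa and one of 196 bases, with more reads in all, with 7.20 and 7.52. Of the promoters named for members, Smurf2 was lowest with 6.66 on plastic and 7.05 on 32 kPa, higher than 14.2% and 38.7% of promoters. Without values per library, the neighbours in this order cannot be separated by a test.

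**Figure D3:**
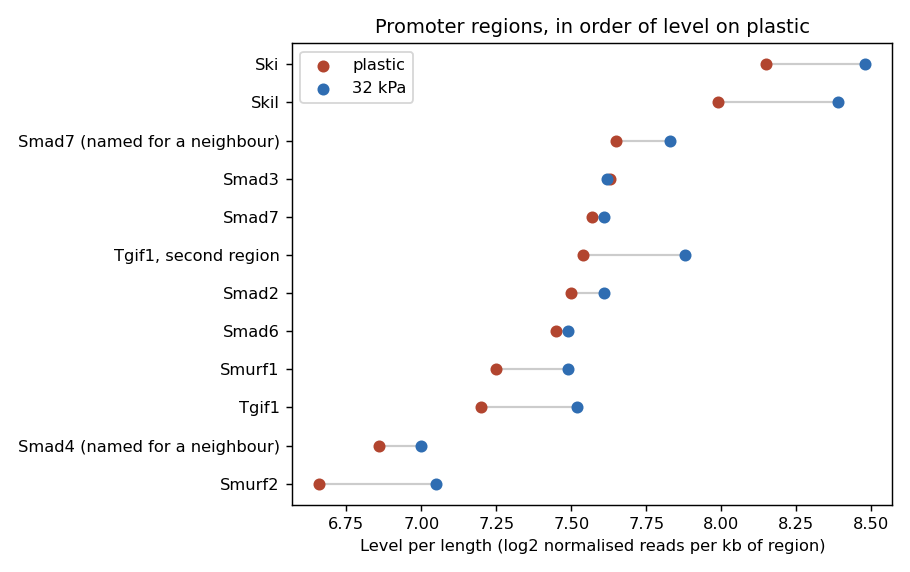
Level per length (log2 normalised reads per kb, horizontal axis) of each promoter region at the member genes on plastic and on 32 kPa, in order of the level on plastic. Ski and Skil stand above 7.9 on both surfaces and Smurf2 is lowest on plastic at 6.66; the regions marked as named for a neighbour lie at the Smad4 and Smad7 starts but carry another gene's name.

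Of the receptor-regulated SMADs, Smad2 and Smad3 had unlike sets of regions. Smad2, on chromosome 18, had 3 regions covering 1032 bases, and nearly all of its reads were in a promoter region of 840 bases (chr18:76241144-76241983) with levels of 7.25 on plastic and 7.36 on 32 kPa. Its other regions were weak. One 53.7 kb downstream of an alternative Smad2 start had 1.91 on plastic and 3.47 on 32 kPa, the lowest fold among the members at -1.56 in the authors' deposited table (p = 0.101). Smad3, on chromosome 9, had 9 regions covering 1924 bases. Its promoter was the single region with the most reads, with 6.57 on plastic and 6.56 on 32 kPa, but did not hold the majority of them. Next came an intergenic region 52.1 kb upstream (5.55 and 5.20) and a region in intron 1 of 8 (5.54 and 5.52). Per kb the intron region had 7.68 on plastic and 7.66 on 32 kPa, slightly above the promoter at 7.63 and 7.62. Of the 9, 7 were higher on plastic, by 0.01 to 0.67, and the median fold was 0.05 in the authors' deposited table, equal to the median of all regions.

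Regions of the Smad3 gene also lay outside the chosen set. A further 6 regions lay in introns of Smad3 but were named for Aagab, the gene beyond its 3′ end. They included the intron 5 region listed for plastic, which was also the only region in a member gene with a p under 0.05 between plastic and 32 kPa. It had 5.47 on plastic and 4.65 on 32 kPa, a fold of 0.82 in the authors' deposited table (p = 0.0461, FDR = 1). This value was noticed after the data were seen and did not pass adjustment. At the other 5, the fold ran from -0.09 to 0.24 in that same deposited table of the authors.

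Smad4, the partner shared by all receptor-regulated SMADs, had 7 regions, all in introns 29.4 to 63 kb from the start, and all weak, at 3.22 to 4.56 on plastic and 2.37 to 4.37 on 32 kPa. None reached the lowest listed level on either surface, so they lay below every region in either list. Its promoter was not among the members because the region there (chr18:73703708-73704057) was named for the noncoding gene 4930578L24Rik, whose start is 44 bases away. That promoter had 5.35 on plastic and 5.49 on 32 kPa, high enough to be listed against 0.2 kPa, and was in neither list.

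Of the inhibitory SMADs, Smad6 had 8 regions covering 2016 bases and Smad7 had 7 covering 1504 bases. The strongest Smad6 region was not its promoter but an intergenic one 80.1 kb downstream of its start (chr9:63941810-63942114), beyond the 3′ end of the gene, with 6.54 on plastic and 6.38 on 32 kPa. Per kb it had 8.25 on plastic and 8.09 on 32 kPa, against 7.45 and 7.49 for the Smad6 promoter (chr9:64021929-64022245). Smad6 and Smad3 are neighbours, both read from the minus strand, and 195 kb lie between the Smad3 start and the Smad6 3′ end. Of the 26 regions across both genes and the interval, 7 lay in that interval, and the nearest-start rule assigned 3 of them to Smad3 and 4 to Smad6. A region in intron 3 of 3 of Smad6, over an RMER15 long terminal repeat, had 4.50 on plastic and 3.75 on 32 kPa, the largest fold of that gene at 0.75 in the authors' deposited table (p = 0.182).

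**Figure D4:**
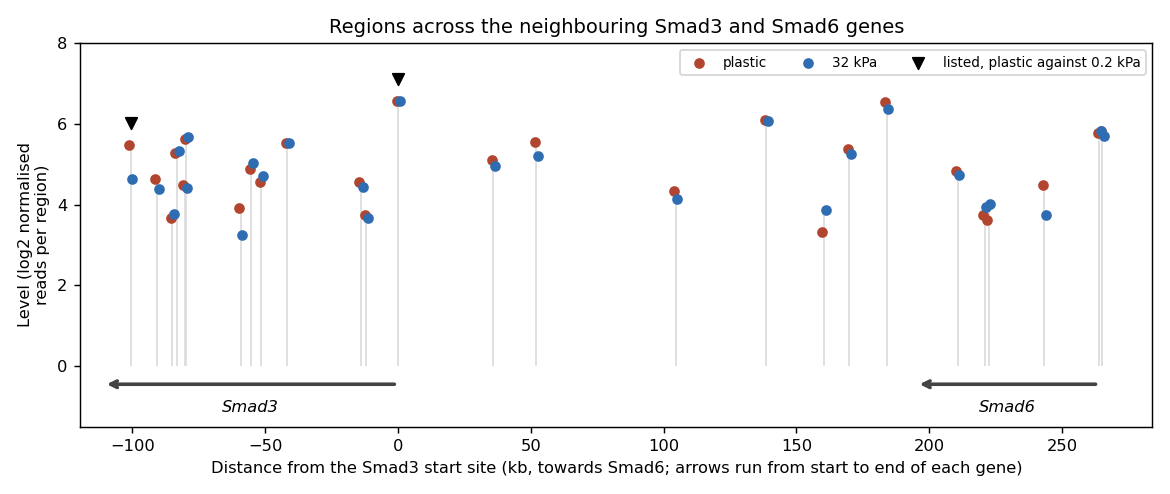
Levels (log2 normalised reads per region) on plastic and 32 kPa of the 26 regions across Smad3 and Smad6, by distance from the Smad3 start in kb. Arrows show each gene from start to end, and triangles mark the 2 regions listed for plastic against 0.2 kPa, the Smad3 promoter and the region in intron 5. The intron 5 region has the widest gap, 5.47 on plastic and 4.65 on 32 kPa, and the promoter points coincide at 6.57 and 6.56.

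Smad7, on chromosome 18, had the strongest region under its own name in intron 3 of 3, 19.0 kb from the start (chr18:75386168-75386513). This intron region had 5.79 on plastic and 6.15 on 32 kPa, more reads than the promoter region named for Smad7 at 5.56 and 5.60. Per kb the intron region had 7.32 on plastic and 7.68 on 32 kPa, against 7.57 and 7.61 for the promoter, so the order differed between surfaces. The promoter region spans the Smad7 start but is annotated to the noncoding gene Gm20544. A neighbouring region annotated as the Smad7 promoter was named for Gm20544. It had 5.87 on plastic, above the intron region, and 6.05 on 32 kPa, below it. Per kb this neighbouring region had 7.65 on plastic and 7.83 on 32 kPa, above the intron region on both surfaces. Of the 7 regions named for Smad7, 3 were higher on plastic and 4 on 32 kPa, with a median fold of -0.05 in the authors' deposited table. Smad4, Smad7 and Smad2 lie in that order on chromosome 18, with 1.66 Mb between the starts of Smad4 and Smad7 and 0.895 Mb between those of Smad7 and Smad2.

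Of the corepressors, Ski had 8 regions, Skil 3 and Tgif1 9. The Ski promoter region (chr4:155223030-155223539) lay upstream of its start, with its centre 749 bases away, and had 7.18 on plastic and 7.51 on 32 kPa. Of the 8 Ski regions, 6 were higher on 32 kPa, down to a fold of -0.92 at a weak intergenic region 13.2 kb upstream (3.39 on plastic and 4.31 on 32 kPa) in the authors' deposited table. The Skil promoter (chr3:31094429-31095114) had 7.45 on plastic and 7.85 on 32 kPa, with a fold of -0.40 in the authors' deposited table (p = 0.0728). The other Skil regions, in intron 2 of 6 and 10.3 kb upstream, had 4.94 and 3.47 on plastic and 5.05 and 2.76 on 32 kPa. Tgif1 was strongest at a CpG-rich region in intron 1 of 2, 474 bases inside a start site (chr17:70852879-70853238), with 5.91 on plastic and 6.22 on 32 kPa. Its promoter regions had 4.85 and 4.13 on plastic, against 5.17 and 4.47 on 32 kPa. Per kb the order changed, since the intron region had 7.38 on plastic and 7.69 on 32 kPa, below the shorter promoter region at 7.54 and 7.88. Of the 9 regions named for Tgif1, 5 lay in introns of the neighbouring gene Dlgap1, so their name rests on distance alone.

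Of the ubiquitin ligases, Smurf1 had 7 regions, 6 of them higher on 32 kPa, and Smurf2 had 5, 3 of them higher on 32 kPa. Smurf1 was strongest among its named regions at a CpG-rich region in intron 1 of 17, 623 bases from the start (chr5:144965036-144965378), with 5.85 on plastic and 5.89 on 32 kPa, and its promoter (chr5:144965787-144966003) had 5.05 and 5.29. Per kb they had 7.39 and 7.25 on plastic, against 7.43 and 7.49 on 32 kPa, so their order differed between surfaces. A stronger region in intron 5 of 17 (chr5:144898448-144898906), named for the microRNA gene Mir7039, had 6.57 on plastic and 6.75 on 32 kPa. A weak region in intron 1, 5.63 kb from the start, had 2.09 on plastic and 3.45 on 32 kPa, a fold of -1.37 in the authors' deposited table (p = 0.147). The Smurf2 promoter (chr11:106920631-106921039) had 5.37 on plastic and 5.76 on 32 kPa, and the strongest other region, 36.9 kb upstream, had 5.49 and 5.34. Per kb the upstream region had 7.53 on plastic and 7.38 on 32 kPa, above the promoter at 6.66 and 7.05. Neither ligase had a listed region, although each had 3 regions high enough to be listed on either stiffer surface.

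**Figure D5:**
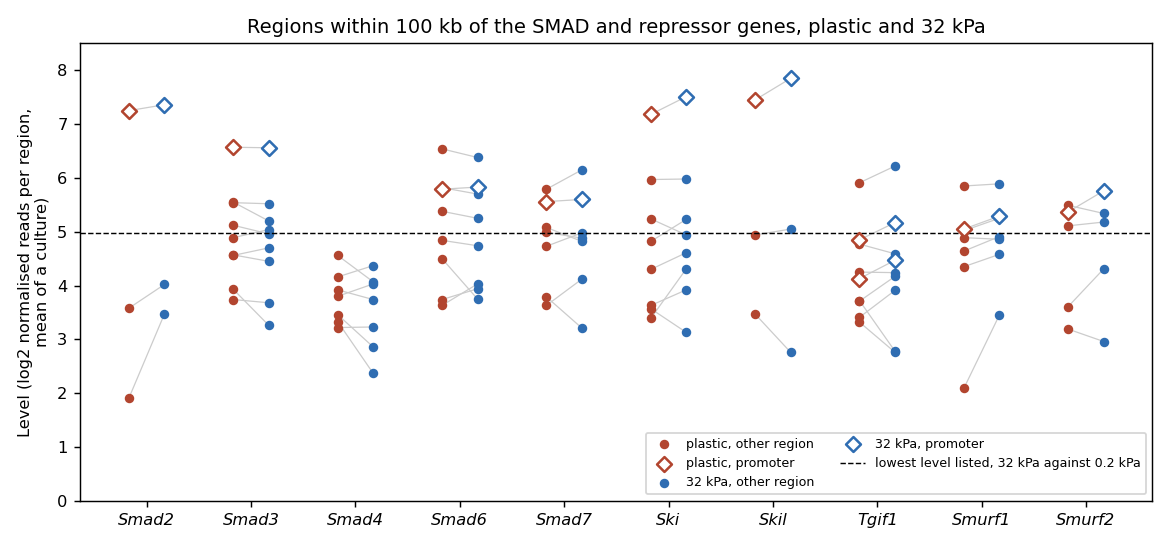
Levels (log2 normalised reads per region, vertical axis) of the 66 regions by gene, with plastic on the left and 32 kPa on the right of each pair and a line joining the same region. Diamonds are promoters, and the dashed line is the lowest level listed for 32 kPa against 0.2 kPa, 4.97. Smad4 has no region above the line and no promoter region under its own name, while Skil, Ski and Smad2 promoters stand above 7. Heights are not corrected for the length of a region.

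Summed over its regions, no locus differed by more than 0.32 on the log2 scale between plastic and 32 kPa. Skil had 217 normalised reads on plastic and 271 on 32 kPa over 976 bases, a log2 ratio of -0.32, and Ski had 328 and 382 over 1543 bases, a ratio of -0.22. Smad3 had 329 on plastic and 311 on 32 kPa, and Smad6 had 324 and 302. The error of these sums is not known here, since only the mean of each surface was used.

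Other regulators of SMADs were found in both lists. Of 32 genes on a list of SMAD partners, ligases, phosphatases and corepressors, 28 had a region high enough for the 32 kPa list and 8 of these were listed (28.6%, against 17.2% of all genes with such a region). For plastic it was 4 of 27 genes (14.8%, against 15.5%). Counted by region, 8 of 49 were listed for 32 kPa (16.3%, against 12.5% of all regions at that level) and 4 of 47 for plastic (8.51%, against 11.7%). The shares for 32 kPa were above those of all genes and regions, and the shares for plastic were below them. They rest on few genes, and neither they nor the difference between surfaces was tested. This list was also chosen with earlier results of these data known, so its shares cannot show an enrichment. The promoter of Ep300, a histone acetyltransferase that SMADs recruit, had 6.15 on 32 kPa against 4.88 on 0.2 kPa (fold 1.27), and 6.12 on plastic against 4.87 (fold 1.26), in the authors' deposited tables. An intronic region of Sin3a, a corepressor scaffold, had a fold of 1.25 on 32 kPa and 1.11 on plastic, and an intergenic one near Tob1, an antiproliferative SMAD partner, 1.18 and 1.23, in the authors' deposited tables. The remaining genes listed for 32 kPa in the authors' deposited table were the kinase gene Hipk2 (fold 1.11), the ligase genes Itch (1.26) and Wwp1 (1), the phosphatase gene Ppm1a (1.08) and Smad1 (1.05), at a region 99.3 kb upstream. Usp15, a deubiquitinase of the pathway, was in the plastic list and not in the other (fold 1.02 in the authors' deposited table). For these genes too, the share of all listed genes found in both lists is not given here.

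Of 20 entries on a list of SMAD2 and SMAD3 target genes, 17 had a region high enough for the 32 kPa list, and 7 of these genes overlapped it (41.2%, against 17.2% of all genes with such a region). For plastic it was 4 of 17 genes (23.5%, against 15.5%). Counted by region, 9 of 45 were listed for 32 kPa (20.0%, against 12.5% of all regions at that level) and 6 of 47 for plastic (12.8%, against 11.7%). A gene with more regions has more chances to be listed, and these shares were not tested. The list of targets was also chosen with earlier results of these data known, so its shares cannot show an enrichment. The 32 kPa list itself holds 10 regions of 8 targets, since the region listed for Ctgf carries no gene name in the table of plastic against 32 kPa. The list of targets includes Skil and Smad7, and Ctgf also under its newer name Ccn2. Acta2 (smooth muscle actin), Tagln and Col1a2 were listed for both. Ctgf, Id1, Lox, Mmp14 and Skil were in the 32 kPa list and not in the other, and Col1a1 in the plastic list and not in the other, a difference that was not tested. The share of all listed genes found in both lists is not given here, so this split cannot be read as a trait of SMAD targets. Each list also leaves out folds below 1, so absence from a list does not mean an unchanged region. Over all listed targets the fold was 1 to 1.36 on 32 kPa and 1.03 to 1.32 on plastic in the authors' deposited tables. Between plastic and 32 kPa, 0 regions of either list passed the FDR and 0 had an unadjusted p under 0.05, with median folds of -0.05 for the regulators and 0 for the targets in the authors' deposited table.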

How the data were processed

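Libraries were grouped by the surface in their labels. Per the submitters' processing notes, BWA, Picard, MACS2 and DiffBind were used, with the build mm10; settings, scaling and any transposase shift are not given in the sources used here. The deposited log2 concentrations are means over the libraries of a surface, and the log2 fold, p-value and FDR were computed by the authors, per the file headers, which also name annotatePeaks.pl. No depth is known, and no interval or test was computed here from the means.

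The tables against 0.2 kPa name their sides Control and Treat. Control was read as the stiffer surface, because at shared intervals it equalled the 32 kPa level of the remaining table (643 intervals) or lay 0.01 to 0.02 above its plastic level (653). Starts differ by 1 base between tables. A repeated header row (1) was dropped.

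A listed region was matched to the table of plastic against 32 kPa where both shared 50% of their length, and counted as overlapping from 1 bp. Described regions were those listed, the strongest promoter and strongest other region of each gene and the most extreme folds; the rest, such as regions named for neighbouring genes, were chosen after their values were seen. Names of transcripts and promoter windows came from RefSeq (GRCm38.p6). The members and gene lists were chosen with earlier results of these data known. Interval matching and motif search were tested on simulated data. Python 3.11.15, pandas 2.3.3, numpy 2.4.6 and matplotlib 3.10.9 were used.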

Additional observations from a re-analysis of the deposited data

How the results depend on the processing

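The counts of listed regions rest on few regions. With an FDR of at most 0.01, or within 10 kb of a start site, 1 region was listed for 32 kPa in place of 2, since Ski drops out. For plastic the count was 1 under both, and 2 with no limit on the distance, which adds the region 126 kb from Tgif1 (an alternative chosen after seeing the data). With any gene name allowed near a start site, also added later, the counts were 3 and 1. Between plastic and 32 kPa the count stayed at 0 at an unadjusted p of at most 0.05 and within 10 kb, and was 1 when regions inside member transcripts were added at that p, again an addition made later. The median fold of plastic over 32 kPa, -0.04, was -0.05 at mean levels of at least 4, -0.10 after centring on all regions, -0.26 within 10 kb (20 regions) and -0.28 at promoters (10 regions, added later). The cause was not tested. The median of each locus kept its sign at mean levels of at least 4. With promoters defined by a distance of at most 1000 bases, the strongest changed for Tgif1 and Smurf1, to 5.91 and 5.85 on plastic. No member region listed for both comparisons was found at either overlap. The share of all listed regions found in both lists is not given here, so this count cannot be read as a trait of the members. Levels on the remaining surface were the same at 90% and 1 bp overlap, except that the Smad3 promoter had no match at 90%. No paired analysis was possible because the tables hold 1 mean per surface, and for the same reason no replicate could be left out.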
